A study of Homo sapiens with 21 samples.

Results

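The caveola genes described here are CAV1, CAV2, CAVIN1, CAVIN3 and EHD2, found by exact symbol as 5 of the 57820 rows of the calibrated expression table. They were selected on their FPKM values in the 7 groups, known from earlier work with these data, so their levels are given as a description and no test is attached to them. RNA was sequenced from NLF, a human cell line derived from a neuroblastoma, in 21 libraries of 7 groups of 3. The groups were YAPKO1 and YAPKO2, which are NLF lines with a knockout of YAP1, and the sgCON line, which carries a lentivirus with Cas9 and a scrambled guide, each with 20 nM trametinib or with DMSO, and the parental line, labelled with DMSO only. YAP1 encodes a transcriptional coactivator that works with TEAD factors and is restrained by the Hippo pathway. Trametinib inhibits the MEK kinases. Treatment started 24 h after plating and lasted 72 h. The study asked how YAP bears on resistance to trametinib in neuroblastoma. Whether each line is a single clone or a pool is not given in the sources used here.

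Caveolae are small flask-shaped pits of the plasma membrane that buffer membrane tension and take part in lipid handling, endocytosis and signalling. Their coat is built from caveolins, membrane proteins that oligomerise into a scaffold, and from cavins, cytosolic proteins that assemble over it. EHD2, a membrane-binding ATPase, sits at the neck and holds caveolae at the surface. Caveolin and cavin genes have been described as targets of YAP and TEAD factors in other cell types, while cells of neuronal lineage generally carry few caveolae.

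The promoter sequences are shown because the comparison removes a TEAD coactivator. RefSeq entries (GRCh38.p14) were matched for 3 of the 5 members and for CAVIN2 and CAVIN4, tested cavins that were not members. The CAVIN4 window was searched but is not printed. Each sequence is the 250 bases before the annotated start, 5' to 3' on the strand of the gene. Capitals mark exact matches on either strand to the GC box (GGGCGG) or to the TEAD motif (GGAATG). The other motifs searched, on both strands, were the AP-1 motif (TGANTCA), the E-box (CACGTG) and the CArG box.
CAV1 promoter, chr7:116524759-116525008, plus strand: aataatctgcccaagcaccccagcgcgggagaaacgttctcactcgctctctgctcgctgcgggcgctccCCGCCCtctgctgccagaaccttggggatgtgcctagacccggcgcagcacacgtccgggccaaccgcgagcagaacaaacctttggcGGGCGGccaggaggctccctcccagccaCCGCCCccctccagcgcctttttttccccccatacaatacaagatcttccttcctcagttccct
CAV2 promoter, chr7:116499488-116499737, plus strand: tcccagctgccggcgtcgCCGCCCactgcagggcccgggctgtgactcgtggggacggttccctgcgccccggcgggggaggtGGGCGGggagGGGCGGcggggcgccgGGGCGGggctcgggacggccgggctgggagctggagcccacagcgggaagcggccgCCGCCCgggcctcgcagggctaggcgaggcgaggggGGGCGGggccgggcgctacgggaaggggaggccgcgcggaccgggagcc
EHD2 promoter, chr19:47713172-47713421, plus strand: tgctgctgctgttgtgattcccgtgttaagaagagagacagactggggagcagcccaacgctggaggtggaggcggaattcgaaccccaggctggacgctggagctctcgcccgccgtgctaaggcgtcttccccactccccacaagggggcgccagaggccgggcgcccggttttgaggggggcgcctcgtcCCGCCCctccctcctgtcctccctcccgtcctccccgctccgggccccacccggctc
CAVIN2 promoter, chr2:191847089-191847338, minus strand: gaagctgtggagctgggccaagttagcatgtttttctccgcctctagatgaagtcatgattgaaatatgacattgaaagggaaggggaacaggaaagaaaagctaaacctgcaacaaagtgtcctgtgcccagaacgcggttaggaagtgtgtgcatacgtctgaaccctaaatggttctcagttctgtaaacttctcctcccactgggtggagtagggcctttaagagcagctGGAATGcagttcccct
The GC box was found 3 times before CAV1, 6 times before CAV2 and 1 time before EHD2. The CAVIN2 promoter held 1 TEAD motif, 16 bases before the start, and 0 GC boxes. The CAVIN4 promoter held 0 matches to the TEAD motif and to each of the other motifs searched. No match to the TEAD, AP-1, E-box or CArG motif was found in the windows of CAV1, CAV2 and EHD2, which says only that those letters are not there. Of 27305 promoters of the same length, 12.0% held the TEAD motif and 42.2% the GC box. The AP-1 motif was held by 6.57%, the E-box by 6.46% and the CArG box by 1.15%. A match is a description of the letters and not a site of binding.

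Levels below are FPKM, a fragment count per length of transcript and per library size, scaled between libraries, in the order of replicates 1, 2 and 3. Differences are log2(FPKM + 0.5) ± SE from limma over the 16092 genes that reached an FPKM of 1 in 3 or more libraries, and a gene is called where its adjusted p is under 0.05. Nothing in the labels says that replicates are separate cultures, so tests cover only the spread between these samples. Each library had 13783 to 14233 genes at an FPKM of 1 or more, and its depth relative to the first parental library, estimated from low values, ran from 0.774 to 1.69. YAP1 RNA averaged 11.7 ± 2.3 in YAPKO1 and 2.89 ± 0.25 in YAPKO2, against 25.6 ± 1.85 in sgCON, all in DMSO (SD, n = 3 each). YAP1 differed from sgCON by -1.12 ± 0.23 for YAPKO1 (limma adjusted p = 0.00363) and by -2.95 ± 0.23 in YAPKO2 (limma adjusted p = 5.02e-08). Transcript remained in YAPKO1, and RNA level alone does not show what protein is made. Of the 10 neuroblastoma identity genes all but TH, the tyrosine hydroxylase gene, reached an FPKM of 1, with summed levels from 284 in a parental library to 729 in a YAPKO2 library with trametinib. Endothelial genes, which mark a cell type rich in caveolae, were under 1 in every library for 5 of 5 genes analysed (CDH5, VWF, KDR, TEK and CLDN5). PECAM1, also on that list of 6, was not matched to a single row by symbol and was left out. The adipocyte genes ADIPOQ, PLIN1 and LEP were under 1 in every library as well.

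CAVIN1 (ENSG00000177469.12, chromosome 17), the cavin that the whole caveolar coat depends on, was the only member above an FPKM of 1. It was close to 0 in both knockout lines and clearly present in sgCON and parental cells. In DMSO, CAVIN1 was at 0.0288, 0 and 0.111 in YAPKO1 and at 0.02, 0.0308 and 0.0208 in YAPKO2, against 7.89, 7.22 and 9 in sgCON. With trametinib it was at 0.0295, 0.0288 and 0.0284 in YAPKO1 and at 0.0491, 0.0198 and 0.0188 in YAPKO2, against 5.08, 5.17 and 7.02 in sgCON. The parental libraries held 23.7, 22.5 and 24.9. The 12 knockout libraries all lay at 0.111 or below and the other 9 all at 5.08 or above, so they did not overlap. The share of all genes with such a split was not counted. The deposited tables step in units of 0.01 before scaling, so most knockout values are 0 or a few such steps, with 0.111 the highest, and differences among them are not resolved.

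**Figure D1:**
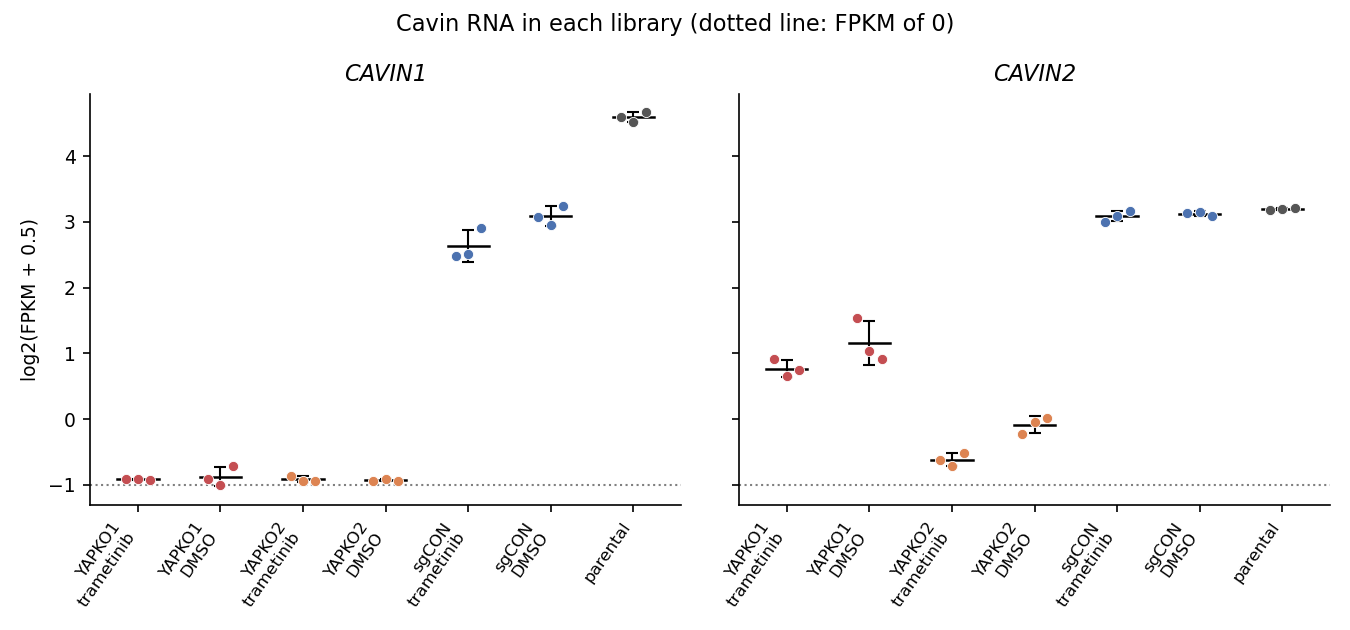
Levels of CAVIN1 and CAVIN2 RNA in each of the 21 libraries, as log2(FPKM + 0.5). Points are libraries, bars the group mean ± SD (n = 3), and the dotted line marks an FPKM of 0. CAVIN1 lay on or just above the dotted line in all 4 knockout groups and was highest in parental cells. CAVIN2 was low in both knockout lines, lower in YAPKO2 than in YAPKO1, and between 7.52 and 8.72 FPKM in sgCON and parental cells.

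The order of the CAVIN1 group means was parental (23.7 ± 1.15), sgCON with DMSO (8.04 ± 0.901), sgCON with trametinib (5.76 ± 1.09), then the 4 knockout groups, which overlapped one another between 0 and 0.111 (SD, n = 3). The log2 difference from sgCON in DMSO was -3.97 ± 0.15 in YAPKO1 and -4.02 ± 0.15 in YAPKO2. With trametinib it was -3.55 ± 0.15 in each knockout line. The pseudocount caps these differences, because a gene at 0 cannot go lower, and with a pseudocount of 0.1 the YAPKO1 and YAPKO2 differences in DMSO were -5.86 and -6.03. From the lowest of 16092 genes, CAVIN1 ranked at place 13 for YAPKO1 and 15 for YAPKO2 in DMSO, and 17 and 19 with trametinib. All 3 values lay below all 3 of sgCON for 16.9% of genes in YAPKO1 and 26.2% in YAPKO2 in DMSO, and for 20.9% and 20.4% with trametinib. CAVIN1 was one of these genes in all 4 comparisons, a pattern known when it was chosen. It passed the filter only through the 9 sgCON and parental libraries, where it was high. Its rank and its place among these genes are thus a description only.

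**Figure D2:**
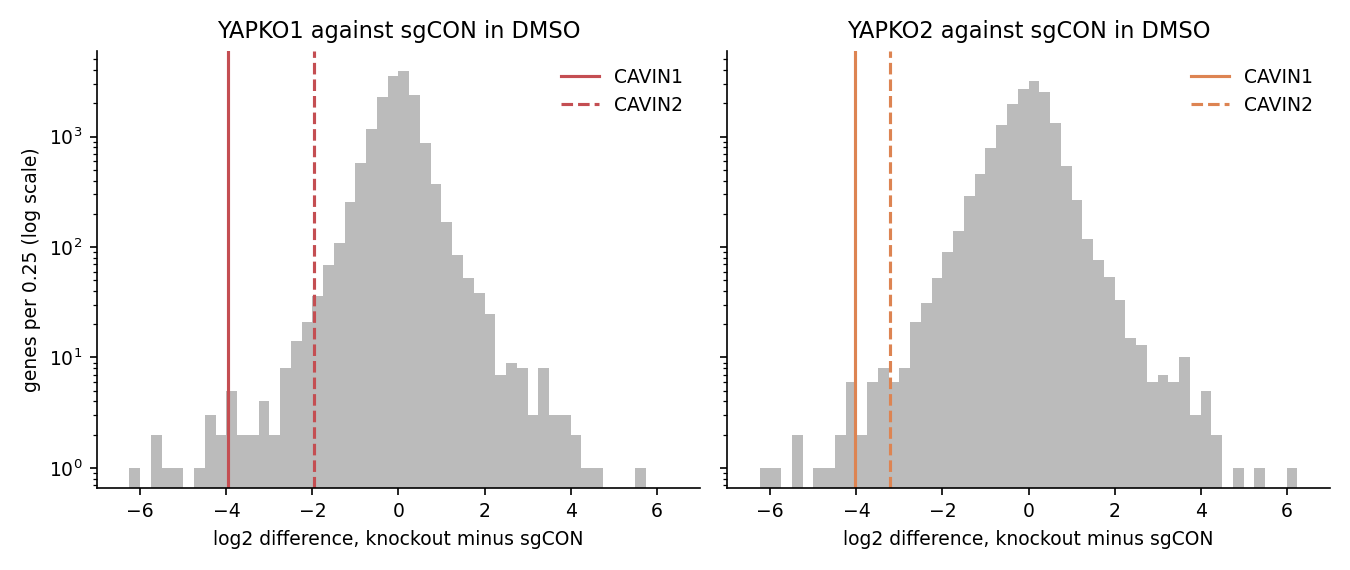
Number of genes (log axis) by log2 difference from sgCON in DMSO, for YAPKO1 and YAPKO2, with vertical lines at CAVIN1 (solid) and CAVIN2 (dashed). CAVIN1 stood at -3.97 and -4.02, in the far lower tail of both distributions, and CAVIN2 at -1.97 and -3.21.

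Knockout of YAP1 was not the only contrast across which CAVIN1 differed. The control line itself held less than the parental line, 7.22 to 9 against 22.5 to 24.9 in DMSO, a log2 difference of -1.51 ± 0.15 with no overlap, where 21.9% of genes lay wholly below parental cells. CAVIN1 ranked at place 169 from the lowest of 16092 in that comparison. Against parental cells, YAPKO1 differed by -5.47 ± 0.15 and YAPKO2 by -5.53 ± 0.15 in DMSO, where 21.6% and 28.7% of genes lay wholly below. Comparisons that use the same control libraries are not independent of each other.

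With trametinib CAVIN1 was lower in sgCON, by far less than the knockout lines differed from sgCON. The 3 treated libraries (5.08 to 7.02) lay just below the 3 with DMSO (7.22 to 9), a log2 difference of -0.46 ± 0.15, where 19.8% of genes lay wholly below. The gap between the nearest libraries was 7.02 against 7.22. In YAPKO1 the trametinib difference was -0.04 ± 0.15 and in YAPKO2 0.01 ± 0.15, with overlapping values at the floor of the table, where no further decrease could be seen. Whether the response of CAVIN1 differed between the lines was not tested.

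The caveolins were scarcely detected. CAV1 (ENSG00000105974.7, chromosome 7), the main scaffold protein of caveolae outside muscle, was listed at 0 in 16 of 21 libraries. It was at 0.268, 0 and 0 in YAPKO1 with DMSO, at 0, 0 and 0.237 in YAPKO1 with trametinib, and at 0.0393, 0.0595 and 0 in YAPKO2 with trametinib. It was at 0 in all 3 YAPKO2 libraries with DMSO and all 6 sgCON libraries, and at 0, 0 and 0.0397 in parental cells. The highest CAV1 values each came from 1 of 3 replicates. Thus no group had CAV1 in all 3 of its libraries.

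CAV2 (ENSG00000105971.10, chromosome 7), which joins CAV1 in mixed oligomers, was low in all groups, with a higher median in the knockout lines and overlap between libraries. In DMSO it was at 0.805, 0.758 and 0.304 in YAPKO1 and at 0.77, 0.421 and 0.833 in YAPKO2, against 0, 0.202 and 0.0199 in sgCON. With trametinib it was at 0.599, 0 and 0.189 in YAPKO1 and at 0.501, 0.327 and 0.942 in YAPKO2, against 0, 0.0294 and 0 in sgCON. Parental cells held 0.132, 0.365 and 0. Both knockout lines with DMSO and YAPKO2 with trametinib lay wholly above sgCON, while YAPKO1 with trametinib overlapped it. All 3 values lay above sgCON for 17.0% of genes in YAPKO1 and 26.4% in YAPKO2 in DMSO, and for 20.4% in YAPKO2 with trametinib. These shares are over the genes that passed the filter, which CAV2 did not. In DMSO, YAPKO1 overlapped parental cells and YAPKO2 did not, but the share of genes wholly above parental cells was not counted. Over the 12 knockout libraries the median was 0.55 (0 to 0.942), against 0.0199 (0 to 0.365) over the other 9. Antisense genes overlap CAV1 and CAV2 in the annotation, and whether the authors counted by strand is not known here, so these small values may hold reads of either.

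CAVIN3 (ENSG00000170955.9, chromosome 11), a cavin known for binding protein kinase C delta, was listed at 0 in 13 of 21 libraries. It was at 0, 0.121 and 0.253 in YAPKO1 with DMSO and at 0, 0.192 and 0 with trametinib. It was at 0 in all 6 YAPKO2 libraries. In sgCON it was at 0, 0.117 and 0 with trametinib and at 0.147, 0 and 0.13 with DMSO, and in parental cells at 0.334, 0.106 and 0. Each of the other 5 groups had a library at 0 as well.

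EHD2 (ENSG00000024422.7, chromosome 19) was the one low member seen in all 21 libraries, between 0.108 and 0.605. Its median was 0.246 (0.162 to 0.605) in the 12 knockout libraries and 0.231 (0.108 to 0.506) in the other 9. With DMSO it was at 0.515 at most in YAPKO1 and 0.329 at most in YAPKO2, against 0.323 at most in sgCON, and the groups overlapped. EHD2 values thus overlapped between the lines.

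**Figure D3:**
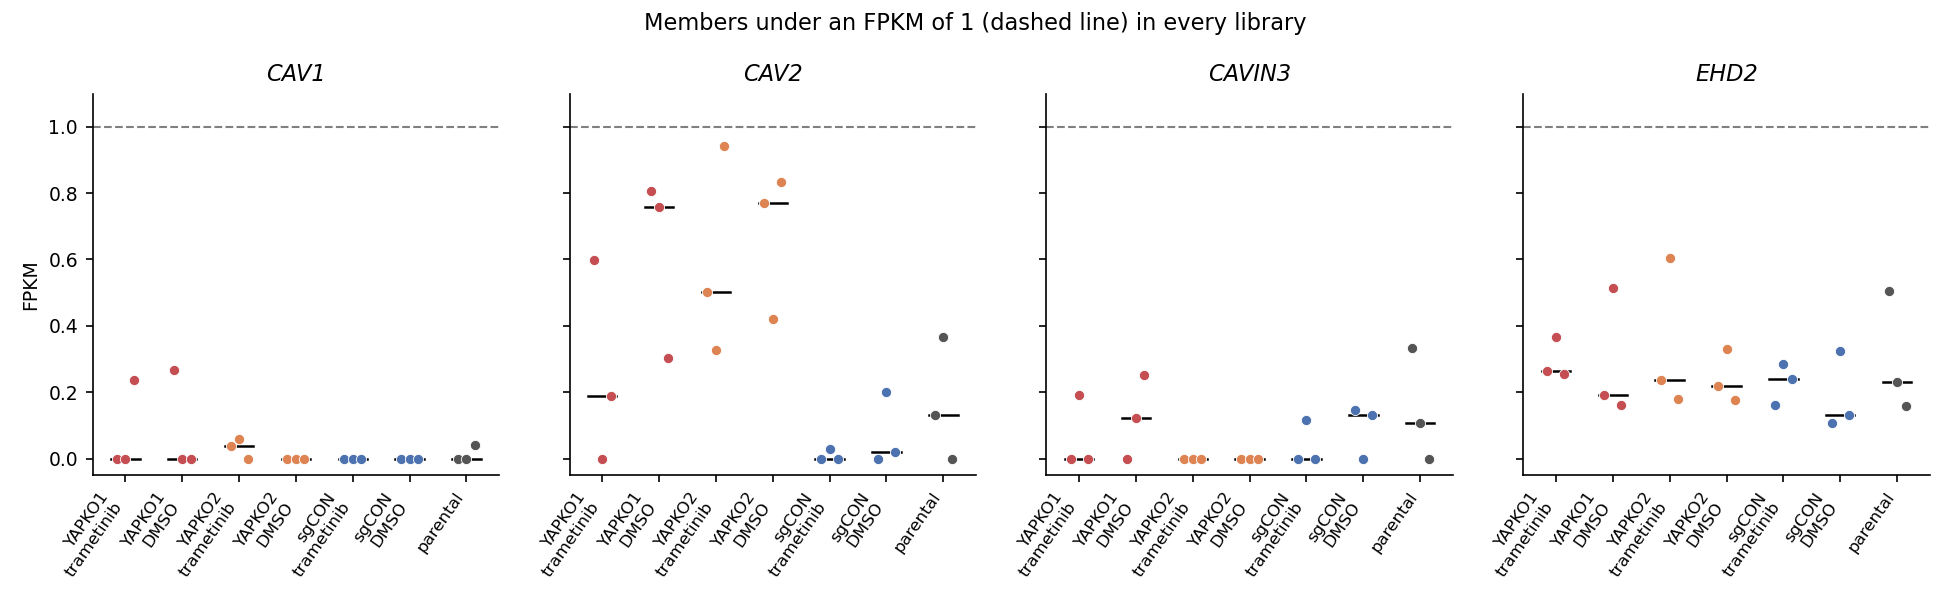
FPKM of CAV1, CAV2, CAVIN3 and EHD2 in each of the 21 libraries. Points are libraries, short bars group medians (n = 3), and the dashed line an FPKM of 1, which no library reached for these 4 genes. The CAV2 median was 0.55 over knockout libraries and 0.0199 over the others, and the values of all 4 genes overlapped between these sets of libraries.

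Averaged over all libraries, 53.8% of protein-coding genes had a lower level than CAVIN1, 34.6% than CAV2, 33.2% than EHD2, 26.2% than CAVIN3 and 22.5% than CAV1, on the FPKM scale, which is per length. Of the caveola genes selected here, CAVIN1 alone was thus above an FPKM of 1, and both caveolins were under it in every library. Over the 21 libraries the log2 level of CAVIN1 had a Pearson r of -0.669 with CAV2, a description that rests on the line differences given above. The transcript GC content was 59.9% for CAVIN1 and 42.8% for CAV2. The GC trend of a library, the median log2 deviation of genes at 57.6% GC or more minus that of genes at 43.4% or less, ran from -0.405 to 1.33 in knockout libraries and from -0.591 to -0.121 in the others. With GC correction the CAVIN1 difference in DMSO was -4.24 in YAPKO2, further from 0 than the -4.02 without it. The part of the GC trend in these results was not tested further.

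CAVIN2, the cavin that shapes and curves the caveolar membrane, was not a member and was tested as part of the list of other caveola genes. That list was also chosen with earlier results of these data known, so the tests of CAVIN2 are not independent of the choice. CAVIN2 fell in both knockout lines, and further in YAPKO2. In DMSO it was at 2.41, 1.54 and 1.38 in YAPKO1 and at 0.35, 0.472 and 0.51 in YAPKO2, against 8.29, 8.39 and 7.99 in sgCON. With trametinib it was at 1.38, 1.07 and 1.17 in YAPKO1 and at 0.147, 0.109 and 0.198 in YAPKO2, against 7.52, 8.01 and 8.44 in sgCON. Parental libraries held 8.52, 8.7 and 8.72. Knockout and other libraries did not overlap, nor did the 2 knockout lines, but the share of all genes with such splits was not counted. All 3 values lay below all 3 of sgCON for 16.9% of genes in YAPKO1 and 26.2% in YAPKO2 in DMSO. With trametinib these shares were 20.9% and 20.4%.

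Against sgCON in DMSO, CAVIN2 had a log2 difference of -1.97 ± 0.15 for YAPKO1 (limma adjusted p = 1.08e-07) and of -3.21 ± 0.15 for YAPKO2 (limma adjusted p = 6.18e-11). With trametinib the values were -2.32 ± 0.15 for YAPKO1 (limma adjusted p = 1.27e-08) and -3.71 ± 0.15 for YAPKO2 (limma adjusted p = 1.09e-11). YAPKO2 lay below YAPKO1 by a log2 difference of -1.24 ± 0.15 in DMSO (limma adjusted p = 3.18e-05) and -1.39 ± 0.15 with trametinib (limma adjusted p = 5.73e-06). In these comparisons limma called 12.0% (YAPKO1) and 27.1% (YAPKO2) of genes against sgCON in DMSO, 15.0% and 36.3% with trametinib, and 6.97% and 14.2% for YAPKO2 against YAPKO1. Leaving out any 1 library kept all 4 calls against sgCON. CAVIN2 did not pass the test between sgCON and parental cells (-0.07 ± 0.15, limma adjusted p = 0.824), where CAVIN1 was lower. It did not pass the test for trametinib in sgCON (-0.04 ± 0.15, limma adjusted p = 0.936). An antisense gene overlaps CAVIN2, with the same limit on strand.

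In YAPKO2 the trametinib difference of CAVIN2 was -0.53 ± 0.15 (limma adjusted p = 0.0178), where 20.1% of genes were called. That call ended without YAPKO2 with DMSO replicate 2 (adjusted p = 0.0543) or 3 (0.0693), without YAPKO2 with trametinib replicate 2 (0.0544), with a pseudocount of 1 (0.0691), with GC correction (0.0523, or 0.0736 with the block) and without the 5 knockout libraries whose GC trend stood apart from others of their group (0.0853), called the libraries of divergent GC trend here, a fit that leaves 1 library of YAPKO2 with trametinib. In YAPKO1 it was -0.39 ± 0.15 (limma adjusted p = 0.133), which passed without YAPKO1 with DMSO replicate 3 (0.0472).

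ROR1, a receptor of the Wnt5a pathway that has been described as a scaffold for CAV1 and CAVIN1 in lung cancer cells, moved the other way. In DMSO it was at 4.35, 4.17 and 3.31 in YAPKO1 and at 5.7, 4.31 and 3.9 in YAPKO2, against 2.99, 1.36 and 1.7 in sgCON. It rose by a log2 difference of 0.86 ± 0.21 for YAPKO1 (limma adjusted p = 0.0125) and 1.07 ± 0.21 in YAPKO2 (limma adjusted p = 0.00142). The YAPKO1 call ended without sgCON with DMSO replicate 2 (adjusted p = 0.0758) or 3 (0.0564). With trametinib ROR1 was at 2.07, 1.74 and 1.35 in YAPKO1 and at 2.92, 2.87 and 4.14 in YAPKO2, against 1.04, 0.813 and 1.03 in sgCON. ROR1 rose in YAPKO2 (1.37 ± 0.21, limma adjusted p = 9.4e-05), while the YAPKO1 difference of 0.60 ± 0.21 missed the threshold (limma adjusted p = 0.0688). That difference passed with GC correction (adjusted p = 0.0403, or 0.0355 with the block) and with a pseudocount of 0.1 (0.047). Parental libraries held 3.21 to 3.36, above all 3 of sgCON and overlapping YAPKO1 in DMSO (3.31 to 4.35). ROR1 was called lower in sgCON than in parental cells (-0.64, limma adjusted p = 0.0479, 15.9% of genes called). That call ended on leaving out 5 of 6 libraries in turn (adjusted p up to 0.228). In DMSO neither knockout line was called for ROR1 against parental cells as fitted. YAPKO2 passed there with quantile normalization (0.54, limma adjusted p = 0.0402) and with GC correction plus the block (0.52, limma adjusted p = 0.0446).

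The remaining genes of the caveola list are membrane-bending and EHD proteins. PACSIN3, an F-BAR protein best known from muscle caveolae, was at 19.4, 24.4 and 19.8 in YAPKO2 against 30.4, 28.4 and 31.8 in sgCON in DMSO. The PACSIN3 fall in YAPKO2 was -0.51 ± 0.15 in DMSO (limma adjusted p = 0.0224) and -0.72 ± 0.15 with trametinib (limma adjusted p = 0.00161). The DMSO call ended without replicate 1 or 3 of either group, with adjusted p up to 0.0734, and with quantile normalization (0.0565). In YAPKO1 PACSIN3 was at 23, 24.6 and 33.4 in DMSO and not called (-0.18 ± 0.15, limma adjusted p = 0.485). With GC correction it was called lower in YAPKO1 too, in DMSO (-0.34, limma adjusted p = 0.00222, or 0.00351 with the block) and with trametinib (-0.32, limma adjusted p = 0.00277, or 0.00425 with the block). Without the libraries of divergent GC trend it was called in DMSO (-0.34, limma adjusted p = 0.00981). EHD1, an ATPase of endocytic recycling, was at 24.5, 31.5 and 14.1 in YAPKO2 against 13.9, 10.3 and 12.3 in sgCON with trametinib, a rise of 0.85 ± 0.23 (limma adjusted p = 0.00731). Without YAPKO2 with trametinib replicate 2 the EHD1 adjusted p was 0.0514, and without the libraries of divergent GC trend EHD1 was called higher in YAPKO1 with trametinib too (0.42, limma adjusted p = 0.0261). PACSIN2, the F-BAR protein of caveolae outside muscle, averaged 15.1 in YAPKO1 and 16.5 in YAPKO2 against 13.5 in sgCON in DMSO and did not pass the test in either line (limma adjusted p = 0.423 and 0.0775). The YAPKO2 difference of PACSIN2 passed with quantile normalization (0.35, adjusted p = 0.0418) and without YAPKO2 with DMSO replicate 1 (0.35, adjusted p = 0.0426). Without YAPKO2 with trametinib replicate 3 PACSIN2 was called higher in that line (0.27, adjusted p = 0.0487), and without the libraries of divergent GC trend PACSIN2 was called higher with trametinib in YAPKO1 (0.28, adjusted p = 0.0239) and YAPKO2 (0.29, adjusted p = 0.0479).

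EHD3 and EHD4, relatives of EHD2, were not called in any of the 4 knockout comparisons with sgCON as fitted. With GC correction EHD3 was called lower in YAPKO2 in DMSO (-0.39, limma adjusted p = 0.00936) and EHD4 in YAPKO2 with trametinib (-0.33, limma adjusted p = 0.0144), also with the block (0.0145 and 0.0178). EHD4 was called lower in YAPKO1 in DMSO without the 5 libraries of divergent GC trend (-0.32, limma adjusted p = 0.0462). EHD3 was called higher in YAPKO2 with trametinib without its replicate 3 (0.40, limma adjusted p = 0.0189). EHD3 averaged 4.83 in sgCON and 6.83 in parental cells, a fall of -0.46 ± 0.14 (limma adjusted p = 0.0389, 15.9% of genes called), and leaving out any 1 of those 6 libraries ended the call (adjusted p up to 0.151). Against parental cells EHD3 fell by 0.50 for YAPKO1 (limma adjusted p = 0.0155, 27.3% of genes called) and by 0.70 in YAPKO2 (limma adjusted p = 0.00114, 37.8% of genes called), on the log2 scale. The YAPKO1 call ended without parental replicate 1 or YAPKO1 replicate 1 (adjusted p up to 0.0708). EHD4 averaged 8.72 in YAPKO2 and 8.97 in sgCON in DMSO, a difference of -0.04 ± 0.15 (limma adjusted p = 0.873). CAVIN4, the muscle cavin, varied widely within a group, at 3.01, 0.654 and 5.73 in YAPKO2 with trametinib, whose GC trends were 0.711, 1.33 and -0.244. It was not called in any of the 12 comparisons as fitted, with an SE of 0.46. Without the libraries of divergent GC trend CAVIN4 was called lower in YAPKO1 with trametinib, against sgCON (-0.59, limma adjusted p = 0.00952) and against DMSO (-0.82, limma adjusted p = 0.00269). In the same setting it was called higher than in parental cells in YAPKO1 (0.72, limma adjusted p = 0.00307), YAPKO2 (0.50, limma adjusted p = 0.0176) and sgCON (0.53, limma adjusted p = 0.0102), all in DMSO. Without YAPKO2 with trametinib replicate 3 it was called lower in that line against sgCON (-1.18, limma adjusted p = 0.0312). CAV3, the muscle caveolin, and PACSIN1, the neuronal F-BAR protein, were under the filter.

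**Figure D4:**
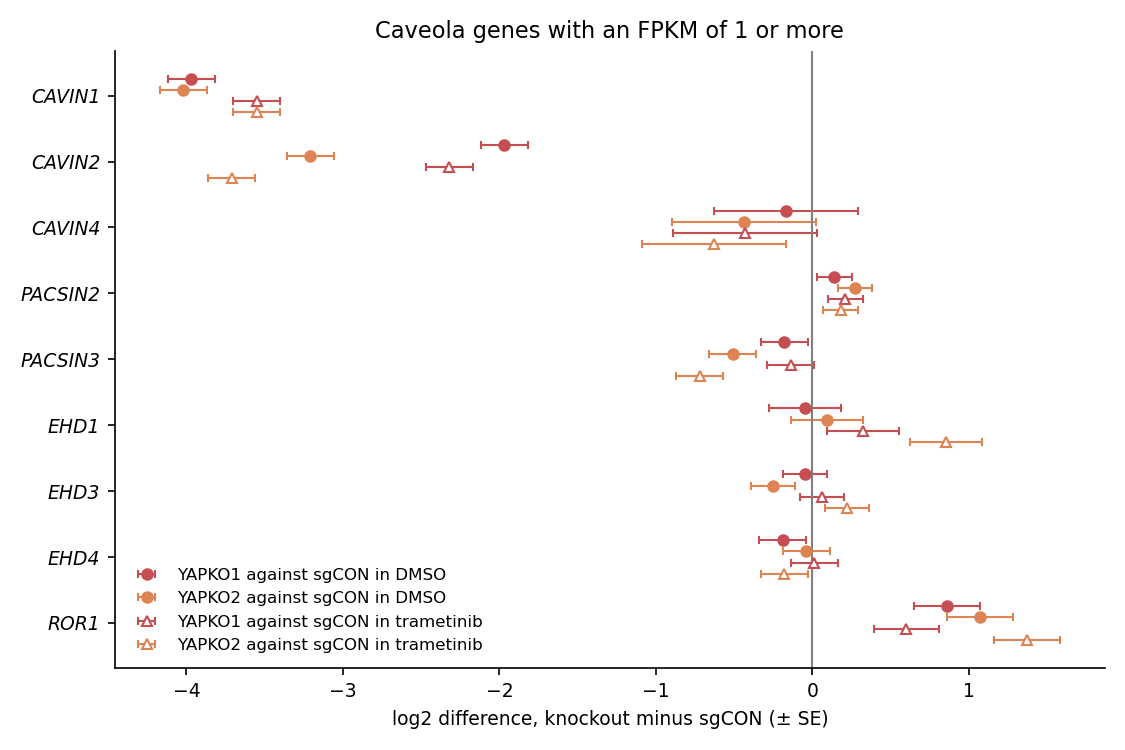
Log2 difference from sgCON ± SE of CAVIN1 and of the 8 tested genes of the caveola list, for YAPKO1 and YAPKO2 in DMSO (circles) and with trametinib (triangles). The 4 values of CAVIN1 and of CAVIN2 lay far left of 0, and those of ROR1 right of it.

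Counted over the list, 8 of 10 genes were tested. In DMSO the calls were 1 up and 1 down for YAPKO1, and 1 up and 2 down for YAPKO2. Of all genes, 12.0% and 27.1% were called there. The median difference of the list was -0.11 in YAPKO1 and -0.14 in YAPKO2, against 0.00 and 0.01 over all genes tested. With trametinib the calls were 0 up and 1 down for YAPKO1, and 2 up and 2 down for YAPKO2. There 15.0% and 36.3% of all genes were called. The list medians were 0.03 and 0.00, against 0.00 and -0.02 over all genes. The call in YAPKO1 with trametinib was CAVIN2. For trametinib in sgCON limma called 0 of 8 list genes, against 5.22% of all genes. In YAPKO1, ROR1 was called lower with trametinib (-1.01 ± 0.21, limma adjusted p = 0.00663), where 7.85% of genes were called. In YAPKO2 the trametinib calls were 0 up and 3 down (CAVIN2, PACSIN3 and EHD4), where 20.1% of genes were called. The list median there was -0.34, against -0.01 over all genes. PACSIN3 fell by -0.56 (limma adjusted p = 0.0156) and EHD4 by -0.44 (limma adjusted p = 0.0475). These 2 calls ended on leaving out 2 and 5 of 6 libraries in turn (adjusted p up to 0.0772 and 0.175). The list held calls in both directions in 3 of the 4 knockout comparisons with sgCON.

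Genes of other uptake routes gave mostly small differences. Of 21 tested genes of clathrin-coated pits, dynamins and flotillins, calls in DMSO were 1 up and 0 down for YAPKO1, and 5 up and 1 down for YAPKO2, where 12.0% and 27.1% of all genes were called. Their medians were 0.07 and 0.16, against 0.00 and 0.01 over all genes. BIN1, a membrane-curving BAR protein, averaged 45.8 in YAPKO1 and 43.5 in YAPKO2 against 29.8 in sgCON. BIN1 rose by 0.60 ± 0.17 for YAPKO1 (limma adjusted p = 0.0256) and by 0.54 ± 0.17 in YAPKO2 (limma adjusted p = 0.0253), and each call ended on leaving out 4 of 6 libraries in turn, with adjusted p up to 0.124 and 0.0973. With trametinib BIN1 rose by 0.79 ± 0.17 for YAPKO1 (limma adjusted p = 0.00381) and 0.75 ± 0.17 in YAPKO2 (limma adjusted p = 0.00213), calls that no single library ended. FLOT2, a flotillin of membrane rafts, averaged 41.6 in YAPKO2 against 25 in sgCON in DMSO (0.72 ± 0.21, limma adjusted p = 0.0181), a call that ended without sgCON with DMSO replicate 2 or YAPKO2 with DMSO replicate 2 (adjusted p up to 0.0862). With trametinib the calls were 1 up and 0 down for YAPKO1, and 3 up and 2 down for YAPKO2. There 15.0% and 36.3% of all genes were called.

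Among 10 kinases, receptors and actin proteins tied to caveolae, 1 was called higher in YAPKO1 and 3 in YAPKO2 in DMSO, with 0 lower in either line, where 12.0% and 27.1% of all genes were called. The medians were 0.04 and 0.14, against 0.00 and 0.01 over all genes. ABL1, a kinase that links caveolae to stress fibres, averaged 32.7 in YAPKO2 against 20.5 in sgCON (0.66 ± 0.14, limma adjusted p = 0.00172). FYN, a kinase that phosphorylates CAV1, averaged 59.1 in YAPKO2 against 31.7 in sgCON with trametinib (0.89 ± 0.10, limma adjusted p = 4.83e-06). With trametinib the calls were 1 up and 0 down for YAPKO1, and 3 up and 1 down for YAPKO2. There 15.0% and 36.3% of all genes were called.

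The genes next to the members on the chromosomes did not share the near-loss of CAVIN1. The nearest tested protein-coding neighbours of CAVIN1 in the reference order were STAT3, STAT5B, ATP6V0A1 and NAGLU. STAT3, a transcription factor of cytokine signalling, averaged 17.5 in YAPKO1 and 16.5 in YAPKO2 against 26.2 in sgCON in DMSO. The STAT3 fall was -0.58 ± 0.15 for YAPKO1 (limma adjusted p = 0.0162) and -0.66 ± 0.15 in YAPKO2 (limma adjusted p = 0.00352), far smaller than that of CAVIN1. The YAPKO1 call ended without sgCON with DMSO replicate 3 (0.0611) or YAPKO1 with DMSO replicate 2 (0.0698). STAT5B, ATP6V0A1 and NAGLU were not called in either line in DMSO. Beside CAV2 and CAV1 on chromosome 7, MDFIC, an inhibitor of MyoD family factors, averaged 0.885 in YAPKO2 against 2.63 in sgCON in DMSO, a fall of -1.19 ± 0.21 (limma adjusted p = 0.00042), while CAV2 was higher there. Over all 16 neighbours, calls in DMSO were 2 up and 1 down for YAPKO1, and 4 up and 4 down for YAPKO2, where 12.0% and 27.1% of all genes were called. With trametinib they were 2 up and 2 down for YAPKO1, and 6 up and 3 down for YAPKO2, where 15.0% and 36.3% were called. Among the 6 were ATP6V0A1, a proton pump subunit (0.84 ± 0.13, limma adjusted p = 0.00011), and NAGLU, a lysosomal enzyme (0.46 ± 0.14, limma adjusted p = 0.0134), both beside CAVIN1. The NAGLU call ended on leaving out 3 of 6 libraries in turn (adjusted p up to 0.0711).

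The protein-coding genes whose log2 levels followed CAVIN1 most closely over the 21 libraries were GREM1 (Pearson r = 0.986), FAM129A (0.981), FOXC1 (0.977), IL13RA1 (0.973) and STXBP5L (0.970). These libraries share lines and treatments, so the r values mostly describe the steps between lines. GREM1, a secreted BMP antagonist, averaged 0.11 ± 0.0292 in YAPKO1 and 0.237 ± 0.126 in YAPKO2, against 2.07 ± 0.216 in sgCON, in DMSO (SD, n = 3). In parental cells GREM1 averaged 4.46 ± 0.158, so it shared the step between sgCON and parental cells with CAVIN1. FOXC1, a forkhead transcription factor, averaged 6.46 ± 0.999 in YAPKO1 and 7.54 ± 0.563 in YAPKO2, against 13.4 ± 0.525 in sgCON in DMSO and 16.6 ± 0.614 in parental cells. IL13RA1, an interleukin-13 receptor chain, averaged 6.44 in YAPKO1 and 5.81 in YAPKO2, against 12.6 in sgCON in DMSO and 19.1 in parental cells. CAVIN1 had an r of 0.909 with CAVIN2 and 0.802 with YAP1. Unlike YAP1, whose RNA was higher in YAPKO1 than in YAPKO2, CAVIN1 was at the floor in both.

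**Figure D5:**
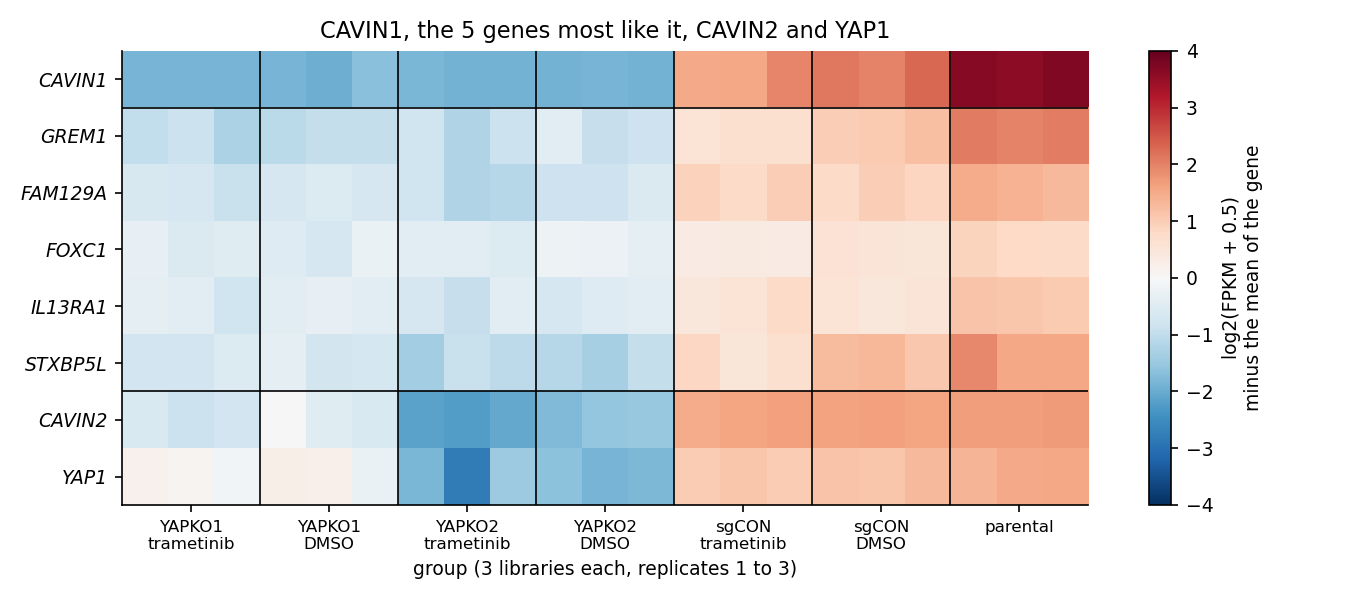
Log2(FPKM + 0.5) minus the mean of each gene over the 21 libraries, for CAVIN1, the 5 genes with the highest r to it, CAVIN2 and YAP1. Columns are libraries in 7 groups of 3, red is above and blue below the gene's mean. CAVIN1 and the 5 genes were blue in both knockout lines, while CAVIN2 and YAP1 were lower in YAPKO2 than in YAPKO1, where YAP1 lay near its mean.

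For the low members the likeness values describe sparse values. The highest r was 0.890 for CAV1 (with CD37), 0.845 for CAV2 (with CYP27C1), 0.665 for CAVIN3 (with BBS5) and 0.652 for EHD2 (with FAHD1). CYP27C1, a retinoid-converting cytochrome P450, averaged 1.4 ± 0.0376 in YAPKO1 and 1.87 ± 0.211 in YAPKO2, against 0.273 ± 0.0978 in sgCON, in DMSO (SD, n = 3). For the mean of the 5 standardised members the highest r was 0.734, with STRADB, so no gene followed all 5 closely.

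Markers of other cell types were read beside the CAVIN1 result. The 6 fibroblast genes, from a cell type with many caveolae, all reached an FPKM of 1 in some library. In DMSO their summed level was 139 to 411 in YAPKO1 and 373 to 602 in YAPKO2, against 355 to 445 in sgCON and 726 to 788 in parental cells. With trametinib it was 90.4 to 173 in YAPKO1 and 176 to 314 in YAPKO2, against 355 to 476 in sgCON. In DMSO the ranges of both knockout lines thus overlapped that of sgCON, while with trametinib both lay wholly below it. Most of the sgCON sums came from 1 gene, LUM (lumican). With trametinib LUM averaged 89.9 in YAPKO1 and 80.1 in YAPKO2, against 336 in sgCON. Of the 6 genes, calls against sgCON in DMSO were 2 up and 2 down for YAPKO1, and 3 up and 1 down for YAPKO2. Of all genes, 12.0% and 27.1% were called there. With trametinib the calls among the 6 were 1 up and 4 down for YAPKO1, and 3 up and 3 down for YAPKO2. There 15.0% and 36.3% of all genes were called. COL1A1, a collagen chain, was called lower in all 4 comparisons and PDGFRB, a growth factor receptor, higher in all 4. The COL1A1 calls for YAPKO1 ended on leaving out 2 of 6 libraries in turn in DMSO (adjusted p up to 0.0655). With trametinib they ended on leaving out 3 of 6 (adjusted p up to 0.0712). DCN, the proteoglycan decorin, averaged 209 in YAPKO2 against 13.9 in sgCON in DMSO (3.87 ± 0.16, limma adjusted p = 1.06e-11). In YAPKO1 with trametinib DCN averaged 4.47 against 30.6 in sgCON (-2.69 ± 0.16, limma adjusted p = 2.91e-09). The summed smooth muscle genes were 19.8 to 30.6 in YAPKO1 and 13.5 to 17.2 in YAPKO2, against 13.7 to 15.7 in sgCON and 12.7 to 15.8 in parental cells. The summed Schwann genes lay between 1.39 and 4.27 in all groups, with SOX10 under 1 throughout. The summed level of the 5 endothelial genes analysed was at most 0.653 in any library. FABP4, a fatty acid binding protein and the one adipocyte gene above an FPKM of 1, was also lower in both knockout lines. It averaged 2.01 in YAPKO1 and 0.513 in YAPKO2, against 12.6 in sgCON, in DMSO. Unlike CAVIN1, it differed between the knockout lines, by a log2 difference of -1.28 for YAPKO2 against YAPKO1 in DMSO (limma adjusted p = 0.00944, 6.97% of genes called). That call ended without YAPKO1 with DMSO replicate 1 (adjusted p = 0.064). FABP4 was not called between sgCON and parental cells (-0.80). FABP4 fell by 2.39 for YAPKO1 (limma adjusted p = 2.1e-05) and by 3.67 in YAPKO2 (limma adjusted p = 5.65e-08), on the log2 scale. The part of other cells in the CAVIN1 result was not tested. In bulk RNA, fewer cells that express CAVIN1 and less RNA per cell cannot be told apart.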

How the data were processed

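Total RNA depleted of ribosomal RNA was sequenced with a stranded kit, per the labels' protocols. The authors deposited FPKM values for 57820 genes in 21 libraries, in a calibrated and an uncalibrated table. STAR 2.4.2, RSEM 1.3.0 and the build hg19 are named in the submitters' processing notes. A single factor per library (0.927 to 1.07) was checked to link both tables. Read numbers are unknown, and intervals from counting are left out. Columns that name DMSO and a number but no line were taken as parental. DMSO is given as 0.01% by the labels, against 0.1% by the design text.

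Calibrated values were rescaled by median-ratio factors (0.93 to 1.11). The filter asked for an FPKM of 1 in 3 or more libraries and left 16092 genes (12164 protein-coding). Then log2(FPKM + 0.5), which understates changes of low genes, was the input of limma 3.58.1 (R 4.3.3, eBayes with trend), which estimated a mean for each of the 7 groups. Tests were two-sided, over 12 comparisons, with Benjamini-Hochberg adjustment over all genes and a threshold of 0.05, and the procedure was tested on simulated data. One member passed the filter and 4 did not, and no member was tested.

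The members and the gene lists (other caveola genes, clathrin pit, dynamin and flotillin genes, signalling and actin proteins, mesenchymal and neuroblastoma genes, and fibroblast, endothelial, smooth muscle, Schwann and adipocyte markers) were chosen with earlier results of these data known. Named genes were all members, YAP1 and WWTR1, the caveola list, up to 4 called genes of each other list with the largest difference in DMSO, the 2 nearest tested protein-coding genes on each side of a member, the 5 genes most correlated with each member and the 10 most correlated with their mean. From these the text gives a part. Gene order and GC content came from GENCODE 29 (GRCh38), matched by gene ID, and promoters from RefSeq, matched by symbol. No hg19 coordinate was used. Alternatives were pseudocounts of 0.1 and 1, no filter or one of 6 libraries, both tables unscaled, quantile normalization, a replicate block, a spline correction for GC content alone and with the block, and leaving out libraries.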

Additional observations from a re-analysis of the deposited data

How the results depend on the processing

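CAVIN1 kept its direction against sgCON under every alternative run. Its size followed the pseudocount: with 0.1 the difference was -5.86 (YAPKO1) and -6.03 (YAPKO2) in DMSO and -5.49 in both lines with trametinib, and with 1 it was -3.11, -3.14, -2.70 and -2.70. GC correction, alone or with the block, gave -4.24 for YAPKO2 in DMSO, -3.73 for YAPKO1 and -3.84 for YAPKO2 with trametinib. Same-numbered libraries did not deviate together (r from -0.326 to 0.361, over 0.1 for every number in 0 of 12 comparisons, 12 of 36 pairs best with their own number), and with the replicate block CAVIN1 in YAPKO1 in DMSO stayed at -3.97.

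Leaving out 1 library gave -4.05 to -3.89 and -4.09 to -3.94 in DMSO. For tested genes, a change of sign was counted only where the gene was called as fitted or under the alternative. Only small PACSIN3 and SMIM30 differences from parental cells met this, at -0.23 (YAPKO1) and 0.39 (YAPKO2) with GC correction, alone or with the block. The causes of these changes and of those below were not tested.

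Called genes of the caveola list moved as follows. Without the 5 libraries of divergent GC trend (which leaves YAPKO2 with trametinib 1 library, assumed to vary like the others) there were 4 for YAPKO1 against sgCON in DMSO (2 as reported) and 4 with trametinib (1), 3 for trametinib in sgCON (0) and in YAPKO1 (1), and 2 for YAPKO2 against YAPKO1 in DMSO (1). Against parental cells they were 5 for sgCON, 4 for YAPKO1 and 4 for YAPKO2 (2 each as reported). With GC correction there were 3 for YAPKO1 with trametinib, 3 for trametinib in sgCON (2 with the block), 2 in YAPKO1, 5 and 4 for YAPKO1 and YAPKO2 against parental cells (5 and 5 with the block), and 2 between the knockout lines in DMSO. A pseudocount of 0.1 gave 2 for YAPKO1 with trametinib and 1 for trametinib in sgCON, as did quantile normalization in sgCON (1). For sgCON against parental cells the count was 0 with no filter or quantile normalization and 1 with either unscaled table or the replicate block. For YAPKO1 against parental cells it was 1 with quantile normalization.

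Leaving out 1 library gave 1 to 2 list genes for YAPKO1 against sgCON in DMSO (1 without sgCON replicate 2 or 3) and 3 to 7 for YAPKO2 with trametinib (7 without its replicate 3). For trametinib it gave 0 to 1 in sgCON, 1 to 2 in YAPKO1 and 0 to 3 in YAPKO2 (0 without DMSO replicate 2 and 1 without 3). It gave 0 to 1 for sgCON and 1 to 3 for YAPKO1 against parental cells, and 1 to 3 for YAPKO2 against YAPKO1 with trametinib (1 without YAPKO1 replicate 3).

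Over all genes, calls for YAPKO1 against sgCON in DMSO went to 3072 with GC correction and 2937 without the divergent libraries (1929 as reported, 1231 to 2132 leaving out 1 library). Without the divergent libraries YAPKO1 with trametinib had 6017 (2412 as reported, 1421 to 2147). Leaving out 1 library gave 2575 to 3848 for YAPKO2 in DMSO (4365). For trametinib in sgCON they were 1520, 1395 with the block and 2764 (840, 483 to 546), and in YAPKO1 2176, 2023 and 5321 (1263, 744 to 1614). They were 3961 and 5018 for sgCON against parental cells (2552, 1696 to 1862) and 1835 and 3023 for YAPKO2 against YAPKO1 in DMSO (1121). With trametinib that count ran from 1564 to 3967 (2280).

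The share of trametinib calls that were higher depended on scaling: 43.7% in sgCON as reported and 54.8% in the calibrated table unscaled, and 50.6% in YAPKO1 and 42.8% in YAPKO2 against 62.3% and 56.4% in the uncalibrated table. Of 9984 checks on single genes, 9332 left the call as it was or, for the untested CAVIN1, moved the difference by less than its SD. Depth is unknown in reads, and values of a few hundredths of an FPKM are not resolved.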

Other observations

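More genes of neuroblastoma cell identity were called higher than lower in both knockout lines. Of 9 tested, calls against sgCON in DMSO were 5 up and 1 down for YAPKO1 and 5 up and 0 down for YAPKO2, with medians of 0.34 and 0.38. Over all genes 12.0% and 27.1% were called, of which 51.5% and 51.9% were up, and the medians were 0.00 and 0.01. One of the YAPKO2 calls, MYCN (0.38, limma adjusted p = 0.0309), ended on leaving out 5 of 6 libraries in turn (adjusted p up to 0.0943). With trametinib the calls among the 9 were 5 up for YAPKO1 and 6 up for YAPKO2, with 0 down. There 15.0% and 36.3% of all genes were called. DBH, the enzyme that makes noradrenaline, averaged 1.02 FPKM in YAPKO1 and 0.563 in YAPKO2, against 0.0264 in sgCON, in DMSO (limma adjusted p = 0.000243 and 0.00409).

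Genes of the mesenchymal neuroblastoma state moved both ways. Of 8 tested, calls in DMSO were 3 up and 0 down for YAPKO1 and 1 up and 3 down for YAPKO2, with medians of -0.11 and -0.08. Of all genes, 12.0% and 27.1% were called, and the medians were 0.00 and 0.01. With trametinib the calls among the 8 were 3 up and 0 down, and 2 up and 4 down, where 15.0% and 36.3% of all genes were called. PRRX1, a homeobox factor of mesenchymal cells, averaged 11.1 in YAPKO1 and 0.262 in YAPKO2, against 0.359 in sgCON (limma adjusted p = 1.2e-09 and 0.563). WWTR1, which encodes TAZ, the paralog of YAP, averaged 4.76 in YAPKO1 and 3.31 in YAPKO2, against 5.72 in sgCON (limma adjusted p = 0.407 and 0.00617).

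The 6 fibroblast genes had median differences in DMSO of -0.44 in YAPKO1 and 0.48 in YAPKO2. COL1A1, a collagen chain, averaged 7.57 in YAPKO1 and 4.37 in YAPKO2, against 17.5 in sgCON (limma adjusted p = 0.0174 and 0.000172), and the YAPKO1 call ended on leaving out 2 of 6 libraries in turn (adjusted p up to 0.0655). COL1A2, its partner chain, averaged 2.58 in YAPKO1 and 6.55 in YAPKO2, against 1.2 in sgCON (limma adjusted p = 0.0165 and 3.21e-06), the opposite direction. The YAPKO1 call of COL1A2 ended on leaving out 2 of 6 libraries in turn (adjusted p up to 0.0924) and without the libraries of divergent GC trend (0.0574). Of 3 smooth muscle genes, calls in DMSO were 1 up (DES) for YAPKO1 and 1 down (ACTA2) for YAPKO2. Of 2 Schwann genes tested, 0 were called for YAPKO1, and calls for YAPKO2 were 1 up and 1 down. Of all genes, 12.0% and 27.1% were called in these comparisons. None of the 5 endothelial genes analysed passed the filter.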
